A study of Mus musculus with 8 samples.

Results

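The genes described here encode the proteins of the mitochondrial ribosome. They were chosen by symbol alone, as every gene named Mrpl or Mrps followed by a number whose RefSeq transcript is the target of a non-control probe, with pseudogenes left out. This gave 78 of the 20145 genes with a symbol on the array, represented by 99 of its 55681 non-control probes. The level was measurable for 77 of the 78 genes, as described under the filter below.

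Gene expression was measured on 1-colour Agilent arrays in 2 sorted bone marrow populations of mice with and without ACKR1, an atypical chemokine receptor that does not signal through G proteins as classical ones do. LSK cells (lineage-negative, Sca1-positive, cKit-positive) contain the haematopoietic stem cells and early multipotent progenitors, and GMP cells (lineage-negative, Sca1-negative, cKit-positive, CD34-positive, CD16/32-positive) are granulocyte-macrophage progenitors. The groups were wild-type LSK, ACKR1-deficient LSK, wild-type GMP and ACKR1-deficient GMP, with 2 arrays in each of the 4 groups and 8 arrays in all. All mice were females 12 weeks of age on a C57Bl/6J background, after a backcross of more than 12 generations, and deficient mice and wild-type controls were littermates from heterozygous parents. The labels do not name the disrupted allele, and they do not say whether the arrays of a group came from separate animals or from pools. The p-values below therefore rest on a spread between arrays of the same group that may be partly technical. In the main fit this spread was pooled over the 4 groups. An array that stood apart in 1 group thus affected the p-values of every comparison.

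The mitochondrial ribosome translates the few proteins that mitochondrial DNA still encodes, all of them core parts of the respiratory chain and of ATP synthase. Its RNAs come from mitochondrial DNA, whereas every protein is encoded in the nucleus, made in the cytosol and imported. Part of the proteins have a counterpart in the bacterial ribosome, and the others were added during the evolution of mitochondria. In blood formation, stem cells are known to keep mitochondrial respiration low, and committed progenitors use it more.

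The members fell into 16 small-subunit proteins with a bacterial counterpart, 10 small-subunit proteins specific to mitochondria, 30 large-subunit proteins with a bacterial counterpart and 21 large-subunit proteins specific to mitochondria. Mrps18a and Mrps30 were counted in the large subunit, where their proteins sit despite their names. Mrps36 was kept apart, since its protein is now regarded as a subunit of the oxoglutarate dehydrogenase complex. The 78 genes lay on 17 chromosomes, with the most, 11, on chromosome 11, so that the set shares a function and not a location.

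Promoters are shown because nearly all members lay on 1 side of several comparisons below while being spread over 17 chromosomes. The part of promoters in those comparisons was not tested. RefSeq windows on GRCm38.p6 were found for 69 of the 78 genes, each covering 250 bases before and 50 bases after the start. Those of Mrps11 and Mrpl46 overlap on opposite strands of chromosome 7. Both strands of each window were searched for the exact letters of motifs of 3 factors known to act on nuclear genes of mitochondria: GCGCATGCG for NRF1, CCGGAAGT for the ETS family to which GABPA belongs, and AAGATGGC for YY1. The NRF1 letters and their reverse complement overlap within a full palindrome, and such a pair was counted once per gene. A gene was counted where any of its windows held the letters. The NRF1 letters were in 7 of 69 members (10.1%), against 1.95% of all 27025 genes with a window and 2.61% of the 17492 protein-coding ones. The ETS letters were in 12 of 69 (17.4%, against 4.31% of all and 5.69% of protein-coding genes). The YY1 letters were in 12 of 69 (17.4%, against 3.19% and 3.57%). At least 1 of the motifs was in 29 of 69 members (42.0%), against 8.94% of all genes and 11.1% of the protein-coding genes. A match is a description of the letters and not a binding site. The 250 bases before the start are printed for a member of each motif and for Mrps18c, described in the GMP comparison below, 5′ to 3′ on the strand of the gene, with the matched letters in capitals. Mrpl17 (chr7:105811088-105811337, minus strand) held the NRF1 letters 11 bases before its start, Mrpl51 (chr6:125191950-125192199, plus strand) the ETS letters 90 bases before, Mrps12 (chr7:28741822-28742071, minus strand) the YY1 letters on the opposite strand 199 bases before, and Mrps18c (chr5:100798509-100798758, plus strand) the ETS letters on the opposite strand 157 bases before.
Mrpl17: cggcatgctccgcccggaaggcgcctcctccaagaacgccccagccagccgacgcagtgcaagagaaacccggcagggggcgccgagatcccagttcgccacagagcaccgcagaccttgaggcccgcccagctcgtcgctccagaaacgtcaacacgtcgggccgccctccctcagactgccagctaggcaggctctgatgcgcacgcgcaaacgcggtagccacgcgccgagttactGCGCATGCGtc
Mrpl51: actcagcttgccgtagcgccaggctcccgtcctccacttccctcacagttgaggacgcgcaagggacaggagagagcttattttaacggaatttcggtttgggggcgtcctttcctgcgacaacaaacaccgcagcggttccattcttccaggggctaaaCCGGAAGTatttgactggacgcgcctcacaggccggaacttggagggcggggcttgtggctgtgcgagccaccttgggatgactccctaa
Mrps12: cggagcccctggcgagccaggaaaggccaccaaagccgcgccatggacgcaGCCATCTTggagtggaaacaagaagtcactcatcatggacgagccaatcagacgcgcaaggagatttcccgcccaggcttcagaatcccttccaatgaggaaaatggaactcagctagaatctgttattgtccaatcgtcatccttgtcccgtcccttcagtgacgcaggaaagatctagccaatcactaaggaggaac
Mrps18c: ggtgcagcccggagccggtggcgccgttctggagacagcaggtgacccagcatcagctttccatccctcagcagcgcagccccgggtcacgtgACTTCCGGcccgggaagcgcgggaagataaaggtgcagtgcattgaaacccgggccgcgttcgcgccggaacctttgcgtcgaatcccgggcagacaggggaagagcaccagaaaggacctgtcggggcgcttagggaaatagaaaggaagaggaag

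The level of a gene is given as the log2 of its processed signal minus the 75th percentile of the array, so that a difference of 1 is a factor of 2. Probes were kept where both arrays of some group had them well above background, and each gene was represented by its kept probe with the highest mean. Levels of different genes come from different probes and were not set against each other. Mrpl21 was the member without a level: its only probe was well above background on 1 of 8 arrays. The other 77 genes were tested among 28088 features with limma, with p-values adjusted by the Benjamini-Hochberg method and 0.05 as the threshold of a call.

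Several arrays stood apart, and this bears on every comparison below. The second deficient LSK array was weak, with 34.3% of its spots well above background and a 75th percentile signal of 24.6, against 62.5% to 73.1% and 197 to 770 on the others. Of the 77 members, 63 were well above background on that array, and 77 on each of the other arrays. Slide position went with the genotype label, deficient arrays being in column 1 and wild-type arrays in column 2, and their effects cannot be told apart. Population went with slide row, LSK arrays being in rows 1 and 3 and GMP arrays in rows 2 and 4, and these cannot be told apart either. Ackr1, the disrupted gene, had no lower mean on the labelled-deficient arrays at its probe, which may lie outside the disrupted part. In LSK it read −0.66 and −1.05 on the wild-type arrays and −0.70 and −0.85 on the labelled-deficient ones, so the groups overlapped. In GMP it read −0.50 and −0.45 against −0.07 and −0.16. The differences were 0.08 in LSK and 0.36 in GMP, and neither passed the limma test. In labelled-deficient LSK its signal cleared background on a single array. Since Ackr1 did not follow the labels, the genotype is given as labelled throughout.

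The populations were checked against markers. The summed linear level of 10 stem and early progenitor markers, in units of the 75th percentile signal, was 338 to 395 in wild-type LSK and 111 to 142 in wild-type GMP, and that of 10 GMP markers was 117 to 189 and 2067 to 2432. Ly6a, which encodes the Sca1 antigen of the sort, did not separate them, at 1.83 and 3.79 in wild-type LSK and 2.83 and 3.11 in wild-type GMP on the log2 scale. Markers also moved with the genotype label. The stem and early progenitor sum was 154 to 233 in labelled-deficient LSK, with 7 of 10 markers above background on both arrays. It was 124 to 267 in labelled-deficient GMP, which overlaps wild-type GMP and spans labelled-deficient LSK. This sum therefore did not separate the labelled-deficient populations. The sum of the GMP markers was 162 to 228 in labelled-deficient LSK and 1843 to 2931 in labelled-deficient GMP. The sum of 10 mature neutrophil markers was 3.36 to 10.6 in wild-type LSK and 1352 to 3268 in labelled-deficient LSK, and 8.78 to 17.2 and 1253 to 3333 in GMP. Of the neutrophil markers 6 were above background on both arrays in wild-type LSK and 9 in labelled-deficient LSK, and 7 and 10 in GMP. The 9 measured erythroid markers summed to 8.14 to 45.4 and 1378 to 8202 in LSK, and 4.35 to 10.1 and 1201 to 2772 in GMP. Among the neutrophil markers, Mmp8 was below background on both wild-type LSK arrays, and Mmp9 and Retnlg on both wild-type GMP arrays. The part of these cells in the genotype differences was not tested, and in sorted bulk RNA fewer cells of a type cannot be told apart from less RNA per cell.

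**Figure D1:**
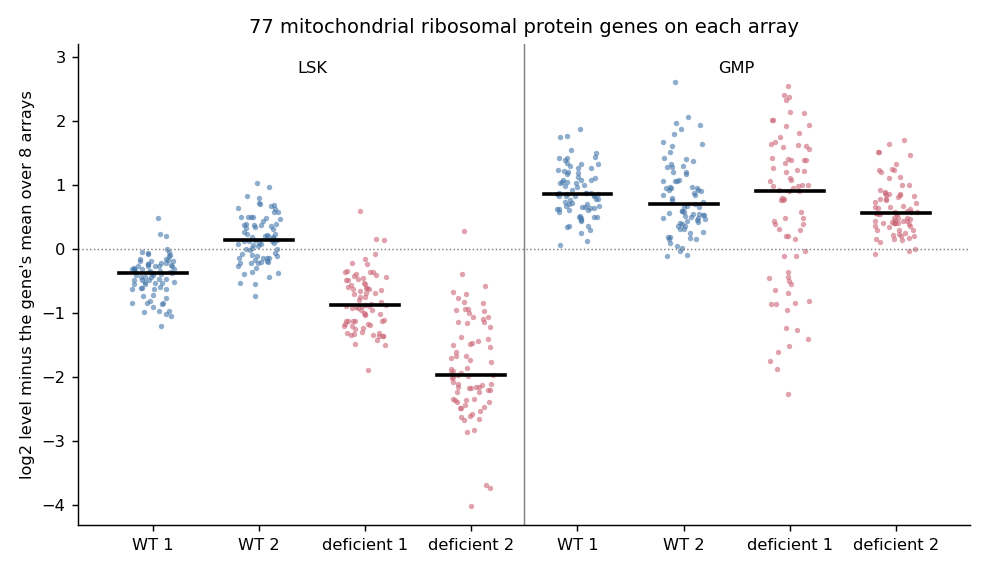
Level of each of the 77 genes on each of the 8 arrays, as the log2 level minus the mean of the gene over all arrays. Points are genes and black lines are medians, from −1.97 on the second labelled-deficient LSK array to 0.91 on the first labelled-deficient GMP array, where the genes spread most widely.

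Across the arrays, the members lay lower in LSK than in GMP. Their median deviation from their own mean was −0.38 and 0.14 on the wild-type LSK arrays, −0.88 and −1.97 on the labelled-deficient LSK arrays, 0.86 and 0.70 on the wild-type GMP arrays, and 0.91 and 0.56 on the labelled-deficient GMP arrays. All 4 GMP arrays were above all 4 LSK arrays, and the wild-type GMP arrays were close to each other. Of the 77 members, 77 and 74 were above their own mean on the wild-type GMP arrays, 3 and 49 on the wild-type LSK arrays, 3 and 1 on the labelled-deficient LSK arrays, and 54 and 74 on the labelled-deficient GMP arrays. Quantile normalization placed the first labelled-deficient GMP array at 0.16, below the second wild-type LSK array at 0.19, so the separation of all GMP from all LSK arrays was lost under that scaling.

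The comparison of the wild-type populations asks how the mitochondrial ribosome differs between early progenitors and granulocyte-macrophage progenitors. Of the 77 genes, 76 lay higher in wild-type GMP than in wild-type LSK, with a median log2 difference of 0.95 against 0.01 over all features. In 73 of 77 genes both GMP arrays were above both LSK arrays, against 28.3% of all features. None of the 77 passed the limma test, in a comparison that called 522 features (1.86%). At an unadjusted p under 0.05, 1 member was higher, against 2.88% of all features. That count was 37 with only the arrays of the groups compared in the fit (48.1%, against 10.2% of all features) and 38 with array weights (49.4%, against 10.8%). Under quantile normalization the median was 0.53 and 63 of 77 genes lay higher.

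The medians of the 4 subunit classes ran from 0.94 to 1.09 in this comparison. Small-subunit proteins with a bacterial counterpart had a median difference of 1.02, with 16 of 16 higher, and those specific to mitochondria 0.94, with 10 of 10 higher. Large-subunit proteins with a bacterial counterpart had 0.94, with 29 of 29 higher, and those specific to mitochondria 1.09, with 20 of 21 higher. No test of a difference between these classes was made.

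Mrpl58, a peptidyl-tRNA hydrolase built into the large subunit that frees stalled ribosomes, had the smallest p. It read 3.19 and 3.93 in wild-type LSK and 5.28 and 4.84 in wild-type GMP. The arrays of the groups did not overlap, and the difference was 1.51 ± 0.63 (SE, n = 2 arrays per group, limma adjusted p = 0.536), a factor of 2.84. Mrpl12, the stalk protein that recruits translation factors, read 3.11 and 4.29 against 5.51 and 5.76, a difference of 1.94 ± 0.89. Mrps15, whose bacterial counterpart binds early to the small-subunit RNA, read 2.01 and 2.94 against 4.28 and 4.14, a difference of 1.74 ± 0.81. Mrpl19, from the face of the large subunit that meets the small one, read −0.17 and 1.13 against 2.13 and 1.99, a difference of 1.58 ± 0.75. In each of these genes the first wild-type LSK array was the lower of its pair, and neither LSK array reached a GMP array.

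Other members with known roles gave smaller or similar values in wild-type GMP minus wild-type LSK. Mrps12, at the decoding centre, differed by 1.26. Mrps22, which in humans is mutated in a disease of heart and muscle, differed by 0.81, and Mrps28 by 0.86. Mrpl10, which anchors the stalk, differed by 1.36, and Mrpl18 by 1.03. Mrpl44, related to ribonuclease III, differed by 0.63, Mrpl45, near the exit tunnel that faces the inner membrane, by 0.50, Mrps30 by 0.69 and Mrps36 by 0.63. The 3 paralogs of the bacterial S18 protein differed by 1.55 (Mrps18a), 1.16 (Mrps18b) and 0.78 (Mrps18c).

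At the other end were Mrpl52 and Mrps6. Mrpl52, a large-subunit protein specific to mitochondria, read 4.28 and 5.11 in wild-type LSK and 4.57 and 4.09 in wild-type GMP, a difference of −0.37 ± 0.64. Mrps6, the counterpart of a bacterial platform protein, read 2.84 and 3.32 against 3.20 and 3.01, a difference of 0.02 ± 0.76. For both genes the arrays of the populations overlapped. The highest value belonged to Mrpl37, at 2.10 ± 1.21, whose 2 wild-type GMP arrays read 0.16 and 1.77.

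**Figure D2:**
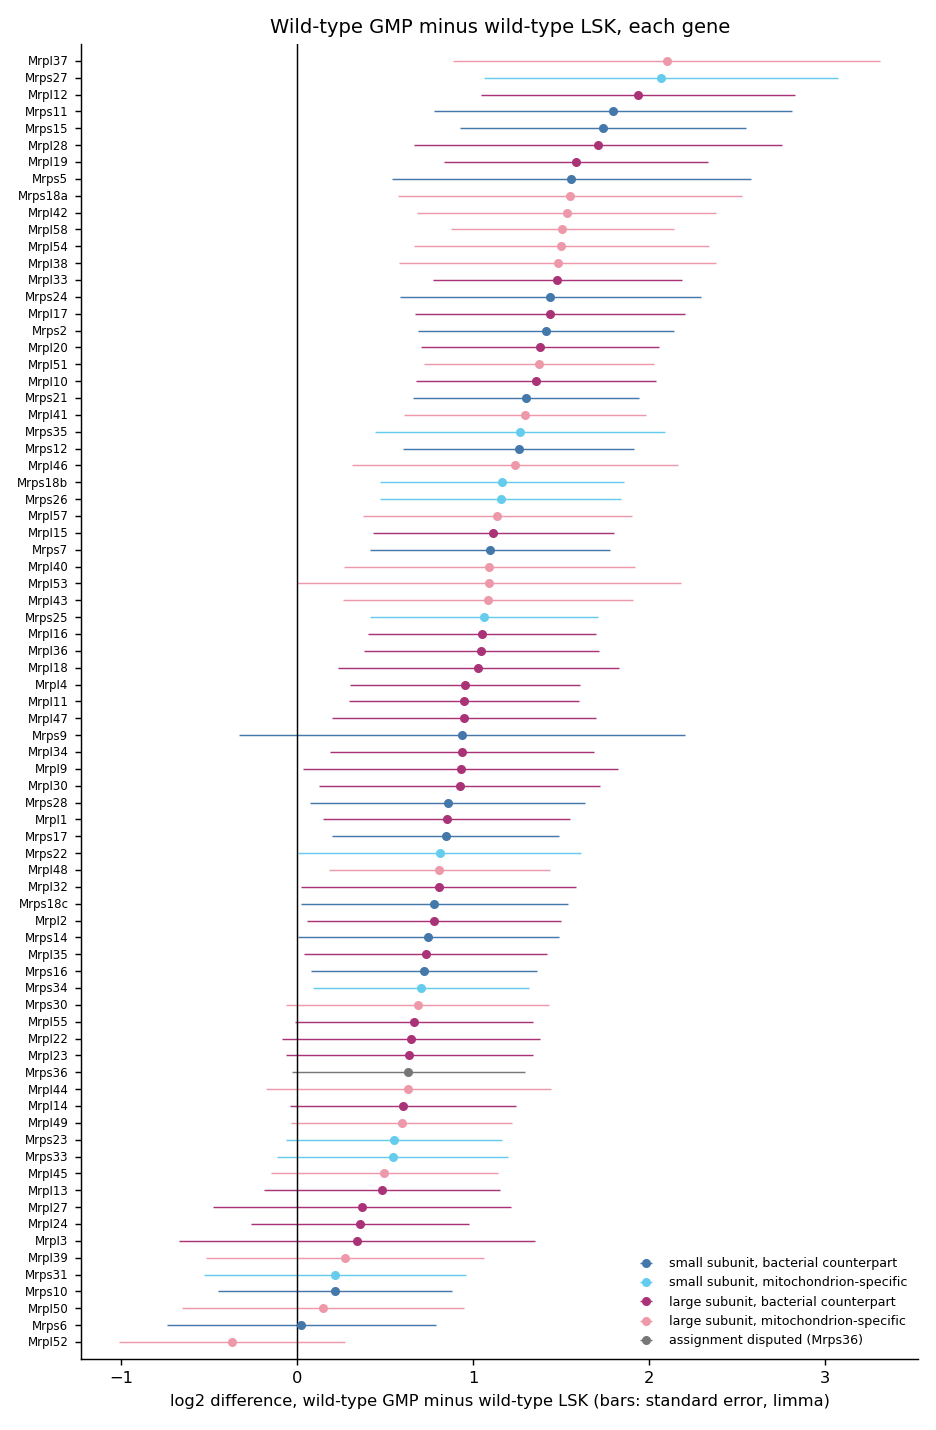
Log2 difference between wild-type GMP and wild-type LSK for each of the 77 genes, ordered by size and coloured by subunit class. Points are limma estimates from 2 arrays per group and bars are standard errors. The values run from −0.37 (Mrpl52) to 2.10 (Mrpl37), and 76 of 77 are above 0.

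Among the arrays labelled deficient, all 77 genes lay higher in GMP than in LSK, with a median log2 difference of 1.97 against −0.07 over all features. In 61 of 77 both GMP arrays were above both LSK arrays, against 18.4% of all features. No member and no feature passed the limma test (0% called), with 49 members higher at an unadjusted p under 0.05, against 9.61% of all features. Without the weak LSK array the median was 1.37, and 62 of 77 genes did not overlap, against 36.1% of all features. Without the first labelled-deficient GMP array 75 of 77 did not overlap, against 29.6%. Calls depended on the arrays and on the background correction: 33 members (42.9%) were among 4258 called features (15.2%) without the first labelled-deficient LSK array, and 21 (27.3%) among 818 (2.91%) with normexp correction.

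Mrpl20, whose bacterial counterpart is needed early in large-subunit assembly, read 3.37 and 3.72 in labelled-deficient LSK and 7.27 and 6.11 in labelled-deficient GMP. The difference was 3.15 ± 0.68 (limma adjusted p = 0.140), a factor of 8.85. Mrpl33, a small protein of the large subunit, read 5.25 and 5.01 against 9.12 and 7.59, a difference of 3.23 ± 0.71 with the same adjusted p. Both genes were tight in LSK and had the first GMP array above the second. Mrpl41, of the mitochondrion-specific large-subunit class, read 2.24 and 1.05 against 5.17 and 4.45, a difference of 3.17 ± 0.69. Mrps21, a small-subunit protein with a bacterial counterpart, read 2.70 and 2.12 against 5.46 and 4.83, a difference of 2.74 ± 0.64. The lowest difference was 0.35 ± 0.89 for Mrpl9, with LSK at 1.19 and −0.32 and GMP at −0.35 and 1.91. Its groups overlapped.

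The genotype comparison within LSK asks whether ACKR1 changes these progenitors. Of the 77 genes, 76 lay lower on the labelled-deficient arrays, with a median log2 difference of −1.23 against 0.11 over all features. In 58 of 77 both labelled-deficient arrays were below both wild-type arrays, against 21.1% of all features. None of the 77 passed the limma test, in a comparison that called 67 features (0.239%), all of them higher. At an unadjusted p under 0.05, 15 members were lower, against 3.38% of all features. That count ran from 0 without the second wild-type LSK array (0.178% of all features) to 39 with normexp correction (8.05%), and was 1 without the weak array (1.72%) and 1 with only the arrays compared in the fit (2.02%). The weak array carried a large part of the size. The first labelled-deficient array alone had 60 of 77 genes below both wild-type arrays (37.0% of all features) and a median of −0.72 from the wild-type mean, and the second 73 of 77 (39.1%) and −1.76. With the weak array left out, 73 genes were lower and 4 higher. With the first labelled-deficient array left out instead, 7 members (9.09%) were among 2827 called features (10.1%).

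Mrps6 had the smallest p in this comparison. Its level was 2.84 and 3.32 in wild-type LSK and 1.71 and −0.04 in labelled-deficient LSK, a difference of −2.25 ± 0.76 (SE, n = 2 arrays per group, limma adjusted p = 0.521). Mrpl52 read 4.28 and 5.11 against 2.95 and 2.87, a difference of −1.79 ± 0.64. The labelled-deficient arrays were close to each other for Mrpl52, whereas Mrps6 was much lower on the weak array. Mrpl34, the counterpart of a very small bacterial large-subunit protein, read 2.76 and 3.31 against 1.91 and 0.19, a difference of −1.98 ± 0.75. Mrpl51, whose promoter is printed above, read 4.32 and 4.81 against 3.39 and 2.40, a difference of −1.67 ± 0.65. In all 4 genes the groups did not overlap.

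The exception in direction was Mrpl1, a protein of the stalk beside the exit site of the large subunit. It read −0.98 and −0.65 in wild-type LSK and −0.37 and −1.16 in labelled-deficient LSK, a difference of 0.05 ± 0.70. Quantile normalization gave −0.26 for it, and its groups overlapped. The most negative value was −2.28 ± 1.01 for Mrpl3, which read 3.55 and 3.71 in wild type and −0.41 on the weak array. Its first labelled-deficient array was −0.53 from the wild-type mean, and the weak array −4.04. Members with known roles were all lower, at −1.63 for Mrps12, −1.23 for Mrps22, −0.98 for Mrps28, −2.03 for Mrps18a, −1.57 for Mrps18b, −1.08 for Mrps18c, −1.48 for Mrps30 and −1.65 for Mrps36. Those of the large subunit stood at −0.34 for Mrpl10, −1.16 for Mrpl12, −1.14 for Mrpl18, −0.89 for Mrpl33, −1.22 for Mrpl44, −0.57 for Mrpl45 and −0.59 for Mrpl58. Medians by class were −1.18 and −0.99 for small-subunit proteins with and without a bacterial counterpart, and −1.15 and −1.48 for large-subunit proteins.

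**Figure D3:**
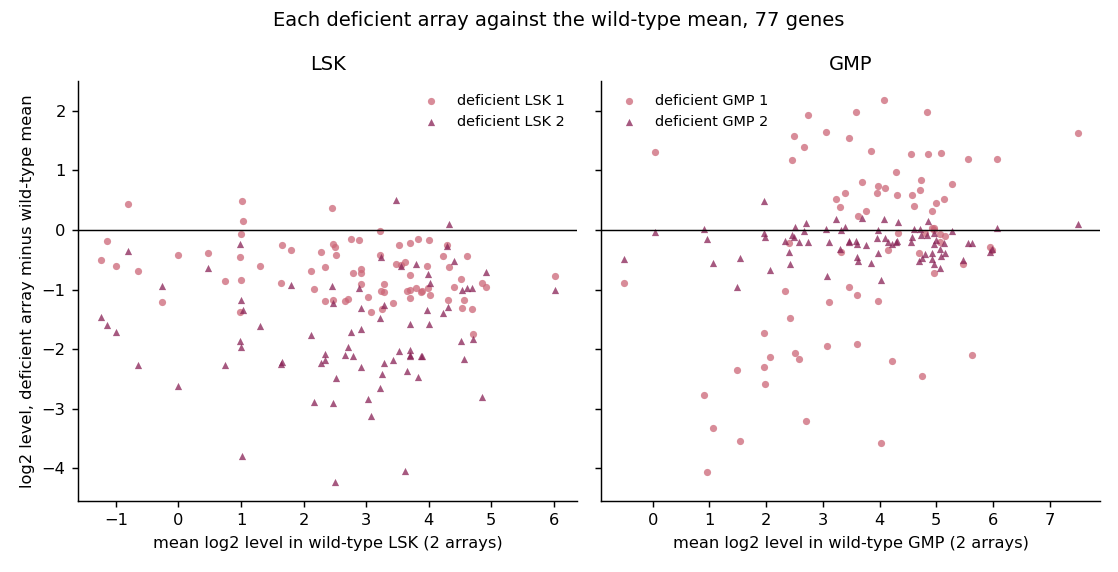
Each labelled-deficient array against the wild-type mean of its population, for the 77 genes. The x axis is the mean log2 level on the 2 wild-type arrays and the y axis the log2 level on 1 labelled-deficient array minus that mean. Circles are replicate 1 and triangles replicate 2. Most genes lie below 0 on both LSK arrays, and on the first GMP array they spread from −4.06 to 2.18.

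Within GMP the differences of the group means showed no common direction, whereas most genes whose arrays did not overlap were lower. Of the 77 genes, 35 lay higher and 42 lower on the labelled-deficient arrays, with a median log2 difference of −0.14 against 0.16 over all features. Both labelled-deficient arrays were below both wild-type arrays in 26 of 77 genes (19.5% of all features) and above them in 4 (20.1% of all features). None of the 77 passed the limma test, in a comparison that called 41 features (0.146%). At an unadjusted p under 0.05, 1 member was lower, against 1.41% of all features, and 13 were without the second labelled-deficient GMP array, against 8.10%.

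The 2 labelled-deficient GMP arrays differed in how the members spread. On the first array, differences from the wild-type mean ran from −4.06 to 2.18 (SD 1.54 over the 77 genes), with 34 genes below both wild-type arrays and 37 above both, against 32.4% and 56.4% of all features. On the second array they ran from −0.96 to 0.48 (SD 0.26), with 49 below both and 5 above both, against 43.6% and 28.8% of all features. Without the first array the median difference was −0.20, with 61 of 77 genes lower, and without the second it was −0.0024, with 39 lower.

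Mrps18c, an S18 paralog of the small subunit, had the highest difference in GMP. On the wild-type arrays it read 4.07 and 4.07, against 6.25 and 4.25 on the labelled-deficient ones, a difference of 1.18 ± 0.76 (limma adjusted p = 0.955). Its paralog Mrps18a, which sits in the large subunit, had the lowest, reading 4.06 and 3.99 against 0.45 and 3.19, a difference of −2.21 ± 0.98 with the same adjusted p. The first labelled-deficient array set the size of both. Mrps11, a platform protein near the messenger exit, read 1.25 and 1.81 against −2.01 and 1.06, and Mrps27, a pentatricopeptide repeat protein, read 0.81 and 1.32 against −2.26 and 0.52. On the higher side, Mrpl33 differed by 0.86, Mrps28 by 0.95 and Mrps33, a small-subunit protein specific to mitochondria, by 0.72. Mrpl19 differed by −1.40. Without the first array Mrps28 was at −0.08.

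**Figure D4:**
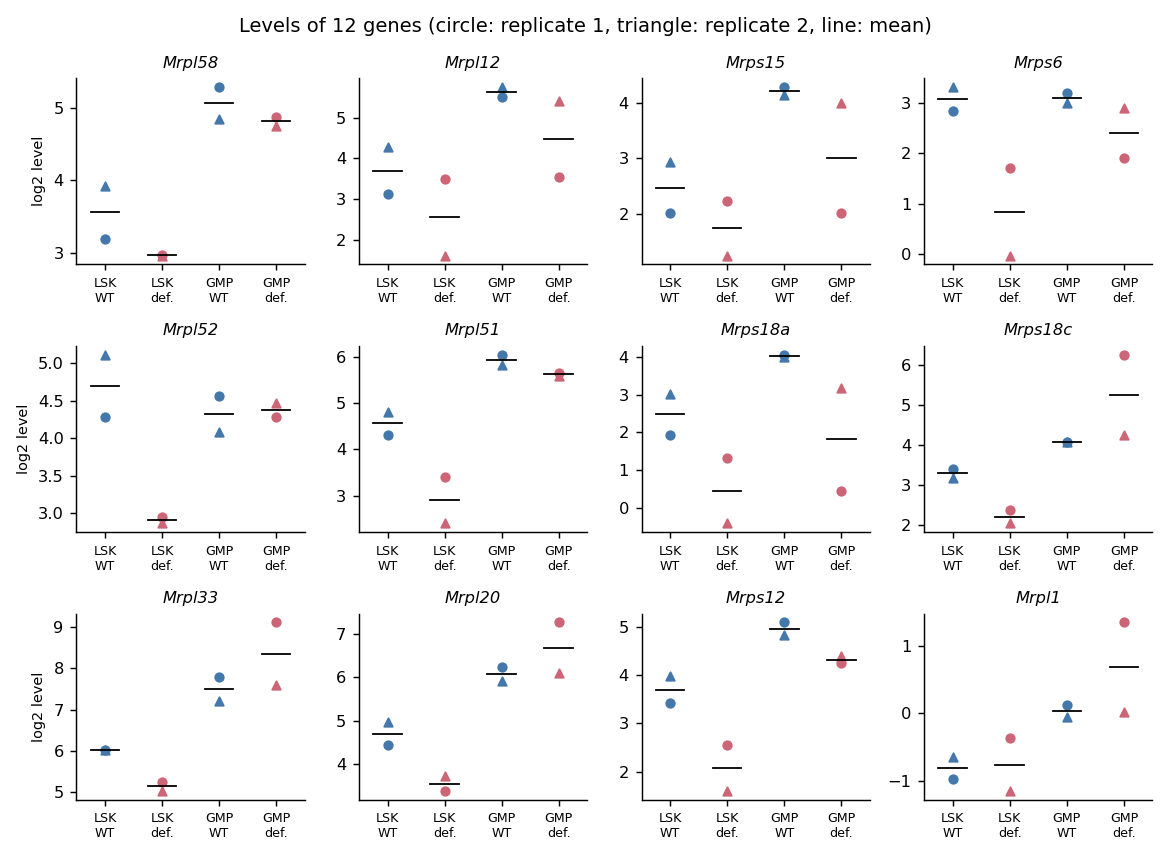
Log2 level of 12 of the genes on each array, by population and labelled genotype (def., labelled deficient). Circles are replicate 1, triangles replicate 2 and black lines the mean of 2 arrays. Mrpl52 and Mrps6 have similar means in the wild-type populations, and Mrps18a and Mrps18c part in opposite directions on the first labelled-deficient GMP array. Each panel has its own vertical scale.

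The difference between the genotype differences of GMP and LSK tests whether the populations depart from each other. Its median over the members was 1.10 against −0.01 over all features, with 64 genes above 0 and 13 below. No member and no feature passed the limma test (0% called), and 0 members had an unadjusted p under 0.05 on the higher side, against 1.41% of all features. That count was 24 without the first labelled-deficient LSK array (10.3% of all features), 12 without the second labelled-deficient GMP array (7.48%) and 13 with normexp correction (3.07%). The smallest p belonged to Mrps14, from the head of the small subunit, at 2.23 ± 1.05 (limma adjusted p = 0.961), followed by Mrps33 at 1.95, Mrps18c at 2.26 and Mrpl55 at 1.99. On the lower side were Mrpl19 at −0.89, Mrpl37 at −1.21, Mrps11 at −0.93 and Mrps27 at −0.79. Without the weak LSK array the median was 0.54.

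Averaged over both populations, 70 of 77 genes were lower on the labelled-deficient arrays, with a median of −0.70 against 0.17 over all features. None passed the limma test, in a comparison that called 169 features (0.602%), and 9 members were lower at an unadjusted p under 0.05, against 5.37% of all features. That count ran from 1 to 29 over the alternatives, the highest without the first labelled-deficient LSK array (13.9% of all features). Mrps18a stood at −2.12 ± 0.69 (limma adjusted p = 0.352), Mrpl54 at −1.66, Mrps6 at −1.48 and Mrpl17 at −1.47. Mrpl1 at 0.35, Mrps10 at 0.24, Mrps31 at 0.20 and Mrpl2 at 0.09 lay on the other side. These 4 changed sign under centring on the array median, to −0.09, −0.19, −0.23 and −0.34.

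**Figure D5:**
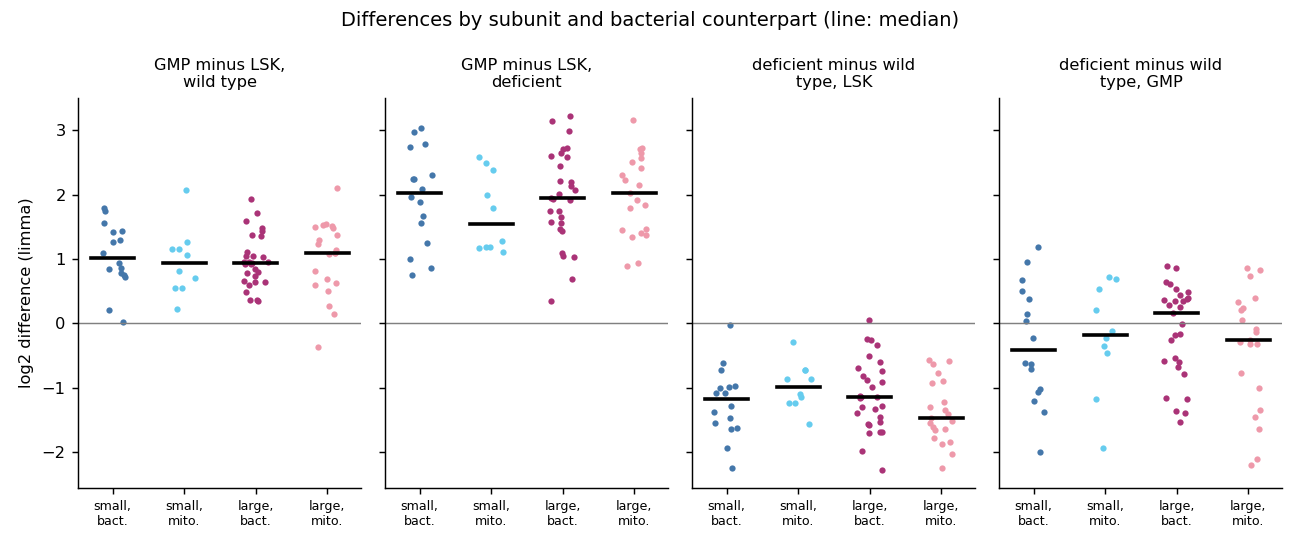
Log2 differences of the members by subunit and by whether a bacterial counterpart exists, in 4 comparisons. Points are genes and black lines medians. In wild type the medians of GMP minus LSK run from 0.94 to 1.09, and in LSK those of labelled deficient minus wild type run from −1.48 to −0.99.

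Several genes had more than 1 kept probe, and their probes did not always give the same direction. Of 21 such genes, 19 had probes of 1 sign in wild-type GMP minus LSK, and Mrpl41 and Mrps25 did not. Mrps25, a small-subunit protein specific to mitochondria, read a difference of 1.06 at the probe used above and −1.66 at the other, which had 2.41 and 0.49 in wild-type LSK and −0.13 and −0.28 in wild-type GMP. The second Mrpl41 probe gave −0.36 where the first gave 1.30. In the LSK genotype comparison 18 of 21 genes had probes of 1 sign, the others being Mrpl10, Mrpl41 and Mrps2. In the GMP genotype comparison 11 of 21 did, the others being Mrpl22, Mrpl27, Mrpl41, Mrpl47, Mrpl49, Mrpl50, Mrps17, Mrps2, Mrps33 and Mrps36. Averaged over both populations 17 of 21 did, the others being Mrpl27, Mrpl41, Mrps2 and Mrps25. In the difference of differences 18 of 21 did, the others being Mrpl4, Mrpl41 and Mrps26. In labelled-deficient GMP minus LSK, Mrpl10, Mrpl41 and Mrps25 had probes of opposite sign.

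Beyond the members, 72 other genes of mitochondrial translation were tested, and 0 of 72 passed the limma test in any comparison. Of all features, 0.239% were called in LSK, 0.146% in GMP, 0.602% on average and 1.86% in wild-type GMP minus LSK. The share was 0% in labelled-deficient GMP minus LSK and in the difference of differences. With shares this low, 0 of 72 does not set these genes apart. At an unadjusted p under 0.05, 3 were lower in the LSK comparison, against 3.38% of all features, 3 lower in GMP, against 1.41%, and 11 lower on average, against 5.37%. For GMP minus LSK, 0 were higher in wild type, against 2.88%, and 13 in labelled deficient, against 9.61%, and 1 was higher in the difference of differences, against 1.41%. In wild type 64 of 72 lay higher in GMP than in LSK, with a median log2 difference of 0.56 against 0.01 over all features. In labelled deficient 62 of 72 did, with a median of 1.08 against −0.07. In LSK 65 of 72 were lower on the labelled-deficient arrays, with a median of −0.91 against 0.11 over all features. In GMP 41 of 72 were lower, with a median of −0.34 against 0.16. In the LSK genotype comparison the ribosomal proteins had a median of −1.23. By list in LSK, the median was −0.88 for 21 transfer RNA ligases and amidation factors, −0.95 for 24 assembly factors, −0.68 for 12 translation factors, −0.77 for 5 ribosomal subunits named otherwise and −1.10 for 10 factors of mitochondrial transcription and protein insertion.

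Single genes of these lists are given by their smallest p, and none of them passed the limma test. Among the 72, the smallest limma adjusted p was 0.602 in wild-type GMP minus LSK. It was 0.551 in the LSK genotype comparison and 0.955 in the GMP genotype comparison. In wild-type GMP minus LSK, Tsfm, the exchange factor for the elongation factor Tufm, differed by 2.20, Taco1, an activator of translation of a cytochrome oxidase subunit, by 2.14, Mpv17l2, an assembly factor, by 2.01 and Sars2, the seryl-tRNA ligase, by 1.67. On the lower side Wars2, the tryptophanyl-tRNA ligase, differed by −1.17. In labelled-deficient LSK minus wild type, Tsfm differed by −1.96 and Mrm1, which methylates the large ribosomal RNA, by −1.81, whereas the initiation factor Mtif2 differed by 1.24. In GMP the elongation factor Tufm differed by −2.44 and the assembly factor Mettl17 by −2.67. In labelled-deficient GMP minus LSK, Slirp, a partner of the RNA-binding protein Lrpprc, had the smallest p, with a difference of 3.63 (limma adjusted p = 0.148).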

How the data were processed

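Processed signals were read from the deposited scanner files, in which, per the file headers, Agilent Feature Extraction 10.7.3.1 gives each spot an intensity on a linear scale after background correction. The values in the authors' deposited table are log2. They corresponded to the scanner's log2 processed signals less the 75th percentile and less the median of each probe over the arrays (r from 0.999687 to 0.999965), so that scale, centring and direction were all settled. For LSK the medians of its columns were 0.12 and −0.26 (wild type) and 0.041 and 1.24 (labelled deficient), and for GMP −0.13 and −0.13 (wild type) and 0.31 and −0.11 (labelled deficient). Per the labels, RNA was extracted with Trizol and labelled with Cy3 by a low-input amplification kit. Further steps were not given in the sources used here.

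From the processed signals, control and outlier spots were left out, log2 values were shifted by the 75th percentile of each array, spots of 1 probe were averaged, and 39098 of 55681 probes were kept. RefSeq accessions gave a symbol for 26582 of the 55681 probes, and genes were represented by the kept probe with the highest mean, or by accession where no symbol was found, which left 28088 features, 15856 of them with a symbol. Gene names and promoters came from RefSeq tables of GRCm38.p6, whereas the headers name another build for the array design, and no coordinates of the array were used. Group means of the 8 arrays were fitted with limma 3.58.1 in R 4.3.3 with lmFit and eBayes, with 4 residual degrees of freedom and 5.76 prior degrees of freedom, and p-values were adjusted by Benjamini-Hochberg over all 28088 features. The fit was tested on simulated data before use. The number of arrays limits the precision.

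Members and gene lists were chosen with earlier results of these data known, and counts over them carry no test. Named genes were those called, the 4 with the smallest p in each direction of each comparison, those without a kept probe, those whose probes opposed each other and a fixed list of members with known roles; Mrpl3 and Mrpl9, as the ends of a range, and Mrpl27, Mrpl28, Mrpl39 and Mrpl47 in the closing section were added after their values were seen. From the other lists, the gene with the smallest p in each direction could be named, and a selection is given. Tried as alternatives were normexp background correction, quantile and median scaling, filters on dim probes, other rules for probes, the deposited table, array weights, fits on the compared arrays alone, replicate blocks and leaving out arrays.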

Additional observations from a re-analysis of the deposited data

Results flagged for a closer look

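Of the 77 members, 3 had both labelled-deficient LSK arrays below both wild-type LSK arrays while both labelled-deficient GMP arrays were above both wild-type GMP arrays, a share of 3.90% against 2.24% of all 28088 features. Mrps18c differed by −1.08 in LSK and 1.18 in GMP, and the difference between them was 2.26 (unadjusted p = 0.0621 in the limma fit). Mrps33 differed by −1.23 and 0.72, with a difference of 1.95 (unadjusted p = 0.0620), and Mrpl47, a large-subunit protein with a bacterial counterpart, by −1.30 and 0.35, with a difference of 1.66 (unadjusted p = 0.150). The limma adjusted p was 0.961 for each of the 3, so none passed the test of the difference itself. For Mrps33 and Mrpl47, another probe of the gene gave the opposite sign in GMP.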

How the results depend on the processing

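Over 122 recomputed comparisons, no member was called in 119. The exceptions were LSK without the first labelled-deficient array (7 called, 9.09% against 10.1% of all features), and labelled-deficient GMP minus LSK without that array (33, 42.9% against 15.2%) and with normexp correction (21, 27.3% against 2.91%). The median member difference in LSK was −1.80 under median scaling, ranged from −1.76 to −0.717 when 1 array was left out and was −0.717 without the weak LSK and the first labelled-deficient GMP array together. Median scaling moved the median of all features in LSK from 0.11 to −0.46. It shifts all features of an array alike, so the members kept −1.35 relative to that median by construction. Relative to all features, normexp correction gave −1.88 and quantile normalization −0.83 in LSK. For wild-type GMP minus LSK, quantile normalization gave 0.47 relative to all features, where the main scaling gave 0.94. In GMP the median turned to 0.047 over the 63 members whose probes were well above background on all arrays. The median of the difference between genotype differences ranged from 0.543 to 1.59 with 1 array left out and was 0.503 with both arrays out. For labelled-deficient GMP minus LSK the median was 1.43 under quantile normalization, 2.57 under median scaling, 1.37 to 2.47 with 1 array left out and 1.51 with both out. The cause was not tested.

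Calls over all features moved widely: from 67 to between 0 and 2827 in LSK, from 41 to between 0 and 193 in GMP, from 169 to between 40 and 905 on average, from 522 to between 17 and 2217 in wild-type GMP minus LSK, from 0 to up to 4258 in labelled deficient and from 0 to up to 14 for the difference of differences. Correlations of same-numbered deviations ran from −0.344 to 0.343 over the 6 pairs of groups, being −0.344 within LSK and 0.262 within GMP. They do not settle whether arrays of the same number are paired. With the replicate number as a block, the LSK median was −1.23 by construction, since replicate numbers are balanced over the groups. In that limma fit 0 members were called, 9 had an unadjusted p under 0.05 in place of 15, and 81 features were called. Blocking on slide row pairs arrays of the same number within a population. With 0 members called, it gave 479 called features in LSK, 193 in GMP and 905 on average, against 67, 41 and 169 in the main fit. The weak LSK array limits what can be read of low members.

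Among single genes, 1605 recomputed values kept their direction and side of the threshold, 21 passed it and 34 changed sign. Replicate blocks, array weights and leaving out arrays of groups not compared left the estimates as they were. Direction could not change in such settings, and the 1605 include their values. In LSK, Mrpl1 was −0.262 (quantile), −0.523 (median scaling) and −0.345 to 0.443 with 1 array left out, and Mrpl10 was 0.530 (each probe tested), 0.0934 (mean of probes) and −0.910 to 0.223 with 1 array left out. In GMP, Mrps28 was −0.0778 to 1.98 with 1 array left out and −0.0778 with both out. Averaged over populations, normexp gave −0.620 for Mrpl2, −0.0321 for Mrps10 and −0.245 for Mrps31. Median scaling gave −0.0864 for Mrpl1, −0.341 for Mrpl2, −0.194 for Mrps10 and −0.229 for Mrps31. With 1 array left out the averages were −0.342 to 0.523 for Mrpl2, −0.0285 to 0.504 for Mrps10 and −0.148 to 0.553 for Mrps31, and with both out −0.338 for Mrpl2 and −0.177 for Mrps10. In the difference of differences, Mrpl37 was −3.17 to 0.741, Mrps11 −2.47 to 0.608 and Mrps27 −2.17 to 0.601 with 1 array left out, and 0.0369, 0.744 and 0.0458 with both out. In wild-type GMP minus LSK, Mrps6 was −0.0127 (normexp), −0.399 (quantile) and −0.217 to 0.266 with 1 array left out, and Mrpl52 was −0.785 to 0.0458 with 1 array left out.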

Other observations

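The spread of the members on the first labelled-deficient GMP array resembled the gap between the wild-type LSK arrays, which share no array with it. Across the 77 genes, the level on that GMP array minus the wild-type GMP mean correlated with the first minus the second wild-type LSK array (r = 0.87, Spearman 0.84), against r = 0.34 over 28086 features. For the second labelled-deficient GMP array the corresponding r over the 77 genes was 0.34. The gap between the labelled-deficient LSK arrays, first minus second, gave r = −0.22 with the first labelled-deficient GMP array (Spearman −0.27), against −0.12 over 28081 features. The 25 members lowest on the first labelled-deficient GMP array, led by Mrpl37, Mrps18a, Mrps11, Mrps27 and Mrpl28, ran from −4.06 to −0.88 there, and their median gap between the wild-type LSK arrays was −1.12. The 25 highest, led by Mrps18c, Mrps28, Mrpl27, Mrpl44 and Mrpl39, ran from 0.63 to 2.18, and their median gap was −0.24. Probes of 1 gene could part on that array. Mrpl27 read 5.56 there at the probe used, against 3.68 and 3.48 in wild-type GMP. Its other kept probe read 2.45, against 3.59 and 3.58. In the GMP genotype comparison, 10 of 21 genes with several kept probes had probes of opposite sign. Over the 77 genes, the difference on that array correlated with the wild-type GMP level (r = 0.42, against −0.27 over all features). The points share the arrays they come from and are not independent, and the cause was not tested. These arrays had 75th percentile signals of 197 on the first labelled-deficient GMP array, and 282 and 770 on the wild-type LSK arrays.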
